A study of Mus musculus with 2 samples.

Results

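The genes of the GFI1B, ETO2 and LSD1-CoREST repressor machinery described here in G1E-ER4 cells were 9, taken by symbol from the 43346 Ensembl genes of the deposited tables; all 9 had a row in both libraries. They were the zinc finger repressor genes Gfi1b and Gfi1, the ETO family genes Cbfa2t3 (which encodes ETO2), Cbfa2t2 and Runx1t1, and the genes of the shared enzyme complex, Kdm1a (LSD1), Rcor1 (CoREST), Hdac1 and Hdac2. Levels are given as TPM, a transcript measure that divides by length and is scaled to the same total in each library, so that genes can be compared.

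GFI1B is a DNA-binding repressor of red cell and megakaryocyte precursors. A short SNAG domain at its N-terminus binds LSD1, a demethylase that strips activating methyl marks from histone H3, and LSD1 is held by the scaffold CoREST together with the deacetylases HDAC1 and HDAC2. ETO2 does not bind DNA itself but docks on complexes of TAL1, E-proteins, LMO2, LDB1 and GATA1, where it recruits deacetylase corepressors and restrains erythroid genes before terminal maturation.

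G1E-ER4, an immortalised line of mouse erythroid precursors, descends from G1E cells, which lack endogenous GATA1 protein, and carries GATA1 joined to an estrogen receptor ligand domain. Both libraries came from cells given 10 nM 17beta-estradiol, which activates the fusion, for 14 h. They form 1 group of 2 biological replicates with no untreated cells, so nothing here measures a response to estradiol or GATA1. The labels give both libraries the same biosample record and name no separate cultures, so a difference between them may be technical.

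Replicate 1 held 38395481 expected counts and replicate 2 held 60097379. The erythroid markers were expressed in 5 of 5 cases, with summed TPM of 9807 and 24644 in replicates 1 and 2. Most of those sums was the globin gene Hba-a1 (7118 and 21029 TPM), and the lowest marker by mean, Alas2, stood at 18.65 and 64.9 TPM. Of the megakaryocyte markers 2 of 5 reached 1 TPM in both libraries (sums 7.71 and 9.29, Gp1bb at 0 counts), of the granulocyte and macrophage markers 2 of 6 (sums 23.43 and 21.01, mainly Spi1, with Elane and Ctsg at 0), of the mast cell markers 1 of 4 (sums 2.67 and 1.67, Cpa3 and Mcpt4 at 0), and of the lymphoid and neural markers 0 of 4 each (highest sums 0.16 and 0.63, with Pax5 and Rbfox3 at 0). The libraries were not alike in erythroid genes: adult globin took 3.02% of all TPM in replicate 1 and 8.06% in replicate 2, and Gata1 RNA, in which the added fusion and the gene's own locus are not separated, stood at 1132 and 2656 TPM. Klf1, an erythroid activator, went the other way, at 1422 and 754 TPM, and was 1.75-fold higher in replicate 1, while Epor, the erythropoietin receptor gene, stood at 116 and 140.04 TPM. The part of these differences in any result below was not tested.

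A coding segment each separated a pair of transcripts of Gfi1b, Kdm1a and Cbfa2t3 found in these libraries. The pairs also differ in 42, 40 and 578 other exonic bases, in that order. The segments are shown because transcripts are grouped by them below. Sequences are from GENCODE M21 transcripts on GRCm38, 5′ to 3′ on the transcript strand, with the segment in capitals and 24 bases of flanking exon in lower case. The Gfi1b segment is a 99-base extension at the 5′ end of exon 6 of 7 (chr2:28611585-28611683, minus strand), which adds 33 codons in frame and is 72.7% G and C.
Gfi1b-204, with the segment: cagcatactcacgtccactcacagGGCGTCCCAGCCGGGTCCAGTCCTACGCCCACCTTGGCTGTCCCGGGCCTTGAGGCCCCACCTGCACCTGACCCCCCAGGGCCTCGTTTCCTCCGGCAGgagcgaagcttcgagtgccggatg
Gfi1b-201, without it: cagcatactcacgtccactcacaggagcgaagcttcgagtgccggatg
The Kdm1a segment is the whole of the 60-base exon 3 of 20 (chr4:136582040-136582099, minus strand), which adds 20 codons.
Kdm1a-202, with the exon: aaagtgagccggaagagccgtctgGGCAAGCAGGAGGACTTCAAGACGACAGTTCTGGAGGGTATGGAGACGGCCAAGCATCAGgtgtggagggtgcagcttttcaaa
Kdm1a-203, without it: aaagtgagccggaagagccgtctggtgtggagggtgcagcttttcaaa
The Cbfa2t3 segment is the whole of the 78-base exon 3 of 12 of Cbfa2t3-202 (chr8:122647701-122647778, minus strand), which adds 26 codons.
Cbfa2t3-202, with the exon: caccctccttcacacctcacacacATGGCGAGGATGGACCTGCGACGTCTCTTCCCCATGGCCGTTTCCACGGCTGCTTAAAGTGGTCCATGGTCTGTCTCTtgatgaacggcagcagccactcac
Cbfa2t3-201, without it: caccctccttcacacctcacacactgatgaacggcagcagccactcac

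Cbfa2t3 was also transcribed, by its annotated transcripts, from more than one first exon, and the promoter windows of its leading starts and of Gfi1b are shown with the motifs of the factors that meet at these repressors. Each is the 250 bases before a RefSeq start (GRCm38.p6, minus strand). Both strands were searched for 4 GATA forms, which are AGATAA and TGATAA and, with a final G in place of A, AGATAG and TGATAG. They were also searched for AAATCA, the core of the GFI1 and GFI1B site, and for the E-boxes CAGATG and CAGCTG that TAL1 and E-proteins bind; matches are in capitals.
Gfi1b, chr2:28621983-28622232: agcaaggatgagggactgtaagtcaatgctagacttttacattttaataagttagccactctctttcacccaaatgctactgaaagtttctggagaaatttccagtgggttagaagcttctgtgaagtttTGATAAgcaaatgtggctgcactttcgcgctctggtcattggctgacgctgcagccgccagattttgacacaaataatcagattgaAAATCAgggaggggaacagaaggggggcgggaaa
Cbfa2t3 distal start, chr8:122699110-122699359: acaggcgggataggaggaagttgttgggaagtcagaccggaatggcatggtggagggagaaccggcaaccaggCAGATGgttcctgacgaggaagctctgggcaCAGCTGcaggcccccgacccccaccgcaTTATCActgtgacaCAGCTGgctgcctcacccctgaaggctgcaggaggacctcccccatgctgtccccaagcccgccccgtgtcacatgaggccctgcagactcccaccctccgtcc
Cbfa2t3 proximal start, chr8:122678176-122678425: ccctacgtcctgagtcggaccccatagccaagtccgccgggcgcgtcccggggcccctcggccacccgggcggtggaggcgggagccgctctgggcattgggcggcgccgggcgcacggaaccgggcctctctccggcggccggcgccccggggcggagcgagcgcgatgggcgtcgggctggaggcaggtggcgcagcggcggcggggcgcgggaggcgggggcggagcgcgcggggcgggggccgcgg
The Gfi1b window held TGATAA at position -120 from the start and AAATCA at -34, with no overlap between them. The distal Cbfa2t3 window held TGATAA on the other strand at -118, CAGATG at -177 and CAGCTG at -146 and -104. The proximal Cbfa2t3 window held none of these letters and was a CG-rich stretch, with 43 CG pairs and 83.2% G and C against 9 CG pairs and 64% in the distal window and 5 and 44.4% at Gfi1b. Over 32851 RefSeq windows of this length, 26.5% held one of the GATA forms, 12.4% held AAATCA, 4.65% held both, 14.4% held CAGATG and 13.0% held CAGCTG, and the median number of CG pairs was 6. RefSeq windows were matched for 7 of the 9 genes, 9 windows in all, of which 2 held a GATA form (Gfi1b and distal Cbfa2t3) and 1 held AAATCA. A match describes the letters only, since no binding was measured.

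Of the 9 genes, 7 reached 1 TPM in both libraries, beside 37.6% of the 21474 protein-coding genes. At 50 TPM or more in both libraries were 2, Gfi1b and Cbfa2t3, beside 9.08% of protein-coding genes. Rcor1 and Kdm1a passed that level in replicate 1 only, so 4 genes passed in that library and 2 in the other. The plot of levels by gene shows 3 tiers: the DNA-associated repressors Gfi1b and Cbfa2t3, the enzyme complex between 22.3 and 84.8 TPM, and the paralogs Cbfa2t2, Gfi1 and Runx1t1 at the bottom.

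**Figure D1:**
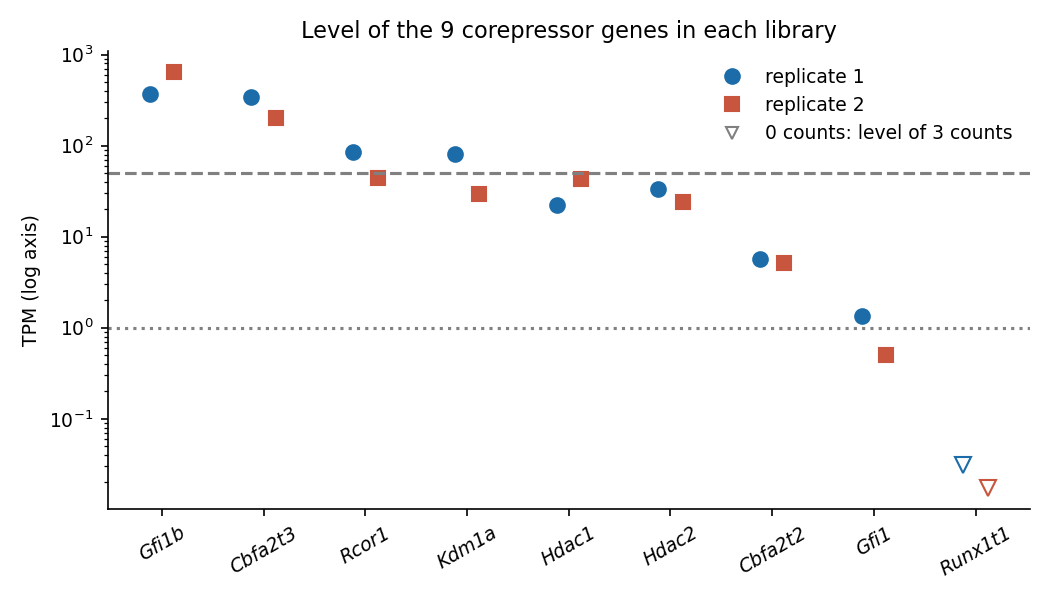
TPM of each gene in replicate 1 (circles) and replicate 2 (squares), log axis; the dotted line is 1 TPM, the dashed line 50 TPM, and open triangles mark the level that 3 counts would give for Runx1t1, which had 0 counts. Gfi1b and Cbfa2t3 sit above 50 TPM in both libraries, while Gfi1 and Runx1t1 sit below 1 TPM in at least 1 of them.

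The paired zinc finger repressors were far apart in level. Gfi1b (ENSMUSG00000026815, chr2:28609450-28621982, minus strand) had 368 and 652 TPM in replicates 1 and 2 (510 ± 201, SD, n = 2), from 18597 and 58770 counts, which placed it 397th and 175th among protein-coding genes. Gfi1 (ENSMUSG00000029275, chr5:107716657-107726036, minus strand), the paralog of granulocyte and lymphoid precursors, stood at 1.33 and 0.50 TPM (0.915 ± 0.587, SD, n = 2), from 23 and 21 counts. Within a library Gfi1b was 277-fold and 1304-fold above Gfi1 in TPM, a mean log2 ratio of TPM + 0.1 of 9.05 ± 1.47 (SD, n = 2), past its spread. A ratio was taken as past its spread where both libraries had the same direction and the mean was more than 2 times the range. With so few counts of Gfi1 the size of that ratio is loose, but its direction held in both libraries. In counts not divided by length Gfi1b was 809-fold and 2799-fold above Gfi1.

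In the ETO family Cbfa2t3 (ENSMUSG00000006362, chr8:122625141-122699109, minus strand) stood at 346 and 199.8 TPM (273 ± 103, SD, n = 2), from 26575 and 31458 counts. Cbfa2t2 (ENSMUSG00000038533, chr2:154436481-154539356, plus strand), which encodes the related corepressor MTGR1, stood at 5.63 and 5.13 TPM (5.38 ± 0.354, SD, n = 2), from 674 and 781.82 counts, with 0 and 10.18 further counts on its pseudogene Cbfa2t2-ps1. Runx1t1 (ENSMUSG00000006586, chr4:13743436-13893649, plus strand), which encodes ETO itself, had 0 counts in both libraries, which allows up to 0.0309 and 0.0174 TPM at 3 counts (counting error only). Cbfa2t3 was therefore 61.4-fold and 39.0-fold above Cbfa2t2 (log2 ratio 5.59 ± 0.47, SD, n = 2, past its spread) and at least 11168-fold and 11507-fold higher than Runx1t1 in replicates 1 and 2, against 3 counts per library. Cbfa2t2 was at least 182-fold and 295-fold higher than Runx1t1 on the same basis. The family was thus present as ETO2 RNA with a minor Cbfa2t2 part and no detectable Runx1t1.

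Of the enzyme complex, the demethylase gene Kdm1a (ENSMUSG00000036940, chr4:136550540-136602723, minus strand) stood at 80.9 and 29.1 TPM (55.0 ± 36.6, SD, n = 2). The scaffold gene Rcor1 (ENSMUSG00000037896, chr12:111039351-111115901, plus strand) stood at 84.8 and 44.7 TPM (64.7 ± 28.3, SD, n = 2). Both were higher in replicate 1, and Kdm1a over Rcor1 was 0.955 and 0.651 in TPM, not past its spread. The deacetylase gene Hdac1 (ENSMUSG00000028800, chr4:129516104-129542713, minus strand) stood at 22.3 and 42.8 TPM (32.6 ± 14.5, SD, n = 2). Hdac2 (ENSMUSG00000019777, chr10:36974544-37001889, plus strand) stood at 33.4 and 24.4 TPM (28.9 ± 6.37, SD, n = 2). Their order turned between libraries, with Hdac1 at 0.669 times Hdac2 in replicate 1 and 1.76 times in replicate 2, while their summed level was 55.7 and 67.2 TPM. The Hdac1 value depends on how reads were divided with a near-identical copy: 60.7% of the 31-base words of its main transcript also occur in the processed pseudogene Gm10093, to which 229.97 and 941.55 expected counts were assigned beside 1257 and 4274 for Hdac1. With both added, the level was 26.5 and 52.3 TPM, and the order against Hdac2 turned in the same way (0.793 and 2.15).

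The partners' paralogs were unevenly spread. Kdm1b, the second LSD-type demethylase, stood at 2.61 and 1.80 TPM, so Kdm1a was 31-fold and 16.2-fold above it (log2 4.42 ± 0.68, SD, n = 2, past its spread). The CoREST scaffold genes lay closer together. Rcor2 stood at 82.5 and 55.3 TPM, not separated from Rcor1 (Rcor1 over Rcor2 1.03 and 0.809, not past its spread), although Rcor1 had 2.98 and 2.25 times as many counts, which on counts not divided by length puts Rcor1 first (log2 1.37 against -0.13 in TPM). Rcor3 stood at 23.9 and 12.5 TPM, and Rcor1 was 3.55-fold and 3.59-fold above it (log2 1.83 ± 0.0083, SD, n = 2), or 15.4-fold and 10.6-fold in counts not divided by length. Gfi1b exceeded Kdm1a 4.55-fold and 22.4-fold, in one direction but with a spread too wide to pass. In all, 6 of the 10 ratios were past their spread, as the plot of ratios shows.

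**Figure D2:**
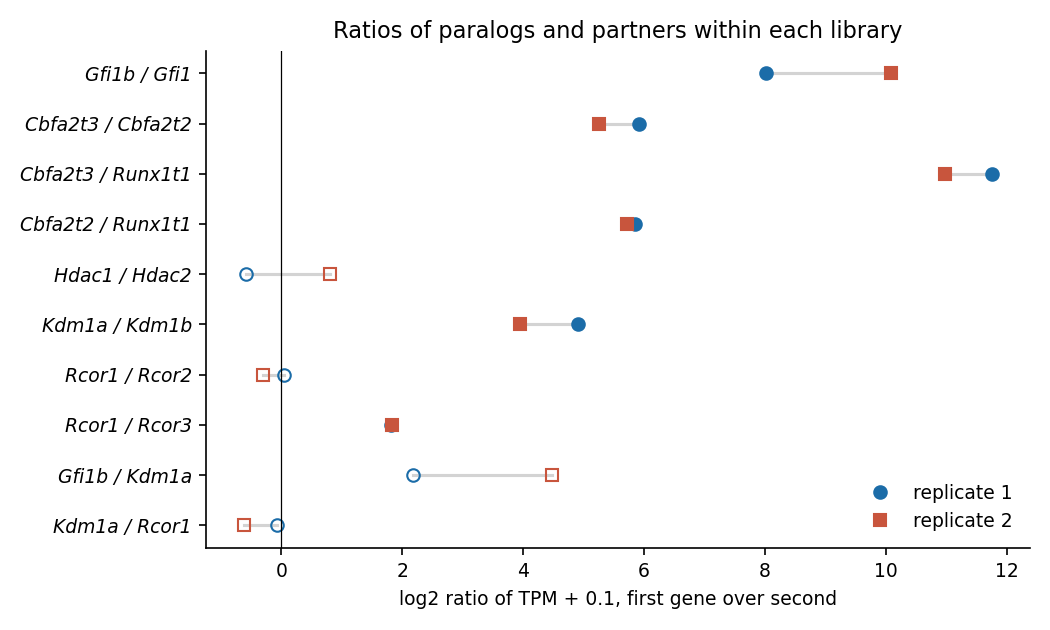
Log2 ratio of TPM + 0.1 of the first gene over the second within replicate 1 (circles) and replicate 2 (squares); filled symbols are the 6 ratios past their spread, open symbols the 4 that are not. Runx1t1 had 0 counts, so its 2 ratios are set by the added 0.1. Hdac1 / Hdac2 and Rcor1 / Rcor2 cross 0 between libraries.

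In the order of mean TPM, the genes ran Gfi1b, Cbfa2t3, Rcor1, Kdm1a, Hdac1, Hdac2, Cbfa2t2, Gfi1 and then Runx1t1 at 0. Of the 7 neighbouring pairs above Runx1t1, 3 were past their spread: Cbfa2t3 above Rcor1 (4.08-fold and 4.47-fold), Hdac2 above Cbfa2t2 (5.93-fold and 4.75-fold) and Cbfa2t2 above Gfi1 (4.23-fold and 10.3-fold). The other 4 were not. The pairs come from sorting on mean TPM in the same 2 libraries, so the direction of each difference in mean TPM was set by the sort. Gfi1b over Cbfa2t3 was 1.06 in replicate 1 and 3.26 in replicate 2, and Kdm1a over Hdac1 turned from 3.62 to 0.679. The genes nearest Gfi1b in level over the 2 libraries were Ndufa12, Pigq and Pgam1 (Euclidean distances in log2 TPM + 0.1 of 0.0542, 0.241 and 0.258), and those nearest Cbfa2t3 were Taok2, Adipor1 and Tsc22d4 (0.0257, 0.0347 and 0.0508).

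For each gene the counts of the 2 libraries were set against their TMM-scaled sizes in a two-sided exact binomial test, and a gene was called where its adjusted p was under 0.05 and its fold 1.5 or more. This compares 2 libraries and not conditions, and its intervals cover counting error only. Of the 8 genes with at least 10 counts in sum, 4 were called, beside 41.4% of all 11230 tested genes, a share near that background. Higher in replicate 2 were 2 of them, beside 24.3% of tested genes, and higher in replicate 1 were 2, beside 17.1%. The median absolute log2 difference of all tested genes was 0.54.

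Gfi1b was 1.92-fold higher in replicate 2 (95% interval 1.88 to 1.95) and Hdac1 was 2.06-fold higher there (1.94 to 2.20, adjusted p = 2.26e-125, exact binomial test). Kdm1a was 2.58-fold higher in replicate 1 (2.48 to 2.67) and Rcor1 was 2.18-fold higher there (2.12 to 2.23). Gfi1b and Hdac1 were thus higher in one library and Kdm1a and Rcor1 in the other. For Gfi1b, Kdm1a, Rcor1 and Cbfa2t3 the adjusted p was too small for the test to write and is listed as 0. Cbfa2t3 was 1.39-fold higher in replicate 1 (1.37 to 1.42), below the fold set, though 1.73-fold higher in TPM. Cbfa2t2 (1.42-fold, 1.28 to 1.58, adjusted p = 7.18e-11, exact binomial test) and Hdac2 (1.26-fold, 1.19 to 1.34, adjusted p = 1.37e-13, exact binomial test) were likewise higher in replicate 1 and under the fold set. In TPM, Cbfa2t2 was only 1.10-fold higher there. An adjusted p under 0.05 at any fold was reached by 73.5% of all tested genes. Gfi1 had a log2 difference of -0.85 and did not pass (adjusted p = 0.0805, exact binomial test). Under edgeR's exact test with a dispersion taken from the spread of both libraries, 0 of the 8 genes were called, 0 had an unadjusted p under 0.05, and 70 of all 11230 genes were called. That dispersion holds the difference being tested, so the absence of calls does not show that the libraries were alike.

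**Figure D3:**
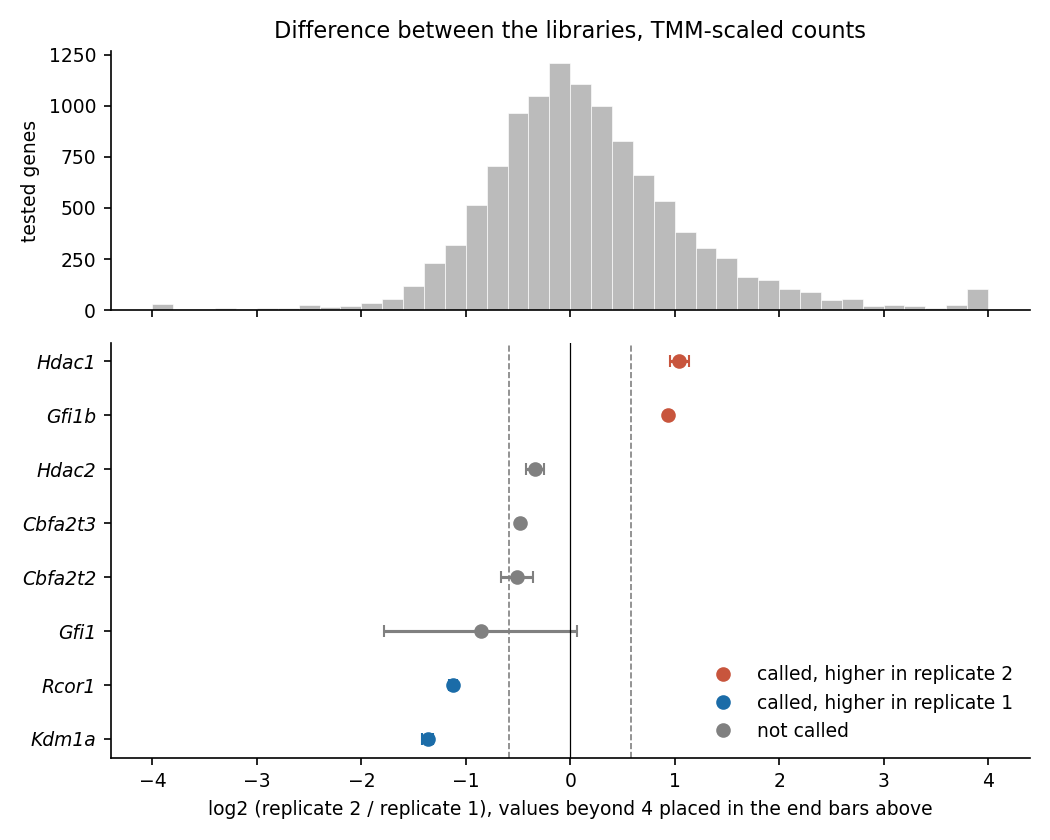
Top, number of tested genes by log2 ratio of replicate 2 to replicate 1, TMM-scaled counts; bottom, the same ratio for the 8 tested genes with 95% counting intervals, dashed lines at a fold of 1.5. Hdac1 and Gfi1b lie to the right and Kdm1a and Rcor1 to the left of the dashed lines, all inside the range of the other genes.

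At transcript level the leading form was the same in both libraries for 6 of the 8 genes with counts, the exceptions being Cbfa2t3 and Cbfa2t2. By share of counts in place of TPM, Cbfa2t3-203 led Cbfa2t3 in both libraries (42.5% and 65.5%), and Cbfa2t2 remained the exception. Each transcript is given as its percentage of the gene's TPM, an estimate that depends on how shared reads were divided, and no test was made on it.

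Gfi1b RNA was mostly Gfi1b-204, which holds the 99-base segment and encodes 363 codons, at 89.27% and 93.48% (328 and 609 TPM). Gfi1b-201, which skips it and encodes 330 codons, took 10.73% and 6.52% (39.5 and 42.5 TPM). The longer coding form therefore led in both libraries, and the difference of Gfi1b between libraries lay almost wholly in it, with 281 TPM more in replicate 2 against 3.02 TPM more of the shorter form. The transcripts also differ in 42 other exonic bases.

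Kdm1a kept its make-up while its level changed. Kdm1a-202, which holds the 60-base exon and encodes 873 codons, took 83.97% and 82.11% (68.0 and 23.9 TPM). Kdm1a-203, which skips the exon and encodes 853 codons, took 15.38% and 17.23% (12.5 and 5.01 TPM). Both forms were lower in replicate 2, by similar factors (2.84-fold and 2.49-fold in TPM).

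Cbfa2t3 had the most divided RNA, with 5 transcripts at 10% or more in either library. Cbfa2t3-203, from the distal first exon and with the longest coding sequence (620 codons), stood at 95.1 and 97.4 TPM, nearly level, which was 27.50% and 48.72% of the gene. Cbfa2t3-202, from the proximal first exon (585 codons), stood at 107 and 23.6 TPM (30.88% and 11.80%). Cbfa2t3-201, also proximal (559 codons), stood at 58.7 and 39.1 TPM (16.97% and 19.56%). The difference of the gene between libraries thus lay in some transcripts and not in the leading coding form of the distal start. Cbfa2t3-207, an annotated retained-intron transcript of 537 bases, had 47.9 and 1.38 TPM (568.55 and 28.68 counts), and Cbfa2t3-204, an incomplete model of 639 bases, at 21.5 and 29.2 TPM. Short models weigh heavily in TPM: Cbfa2t3-207 held 13.85% of the gene's TPM in replicate 1 but 2.14% of its counts.

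Summed by first exon, the distal start held 143 and 98.7 TPM (41.35% and 49.41%) and the proximal start 179 and 70.6 TPM (51.73% and 35.33%). The proximal start led in replicate 1 and the distal start in replicate 2. A further first exon between them, that of the incomplete Cbfa2t3-204, held 21.5 and 29.2 TPM (6.22% and 14.61%) and was counted with neither. The lead of the distal start in TPM in replicate 2 depends on keeping that exon apart from the proximal start. In counts the distal start led there either way (20637.4 against 10035.5 proximal and 767.53 for Cbfa2t3-204). Summed by the 78-base exon, forms that hold it made up 64.60% and 75.13% of the gene and forms that skip it 20.85% and 23.53%, so that inclusion led in both libraries. The deposited length of Cbfa2t3-203 is 4047 bases and that of the M21 model 7645, so the annotated model differs between the releases.

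By share of TPM the low paralogs rested mostly on incomplete models. Cbfa2t2-206, an incomplete model, took 66.28% and 16.49%, and Cbfa2t2-203, also incomplete, took 8.50% and 54.86%. The full-length Cbfa2t2-204 took 6.01% and 24.31%, and the retained-intron form Cbfa2t2-205 took 11.76% and 0%. By share of counts Cbfa2t2-206 led in replicate 1 (83.1%). The full-length Cbfa2t2-204 led by counts in replicate 2 (51.4%, against 28.9% for Cbfa2t2-206 and 11.3% for Cbfa2t2-203). Gfi1 was mainly the incomplete 689-base Gfi1-204 (98.75% and 89.26%), with Gfi1-201 at 1.25% and 10.74%, from 1.37 and 7.96 counts. The shares of Gfi1 come from few counts, and those of Cbfa2t2 differed widely between the libraries.

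Rcor1 was wholly Rcor1-201 in replicate 1 (100%). It was divided in replicate 2 between Rcor1-201 (63.56%, 28.4 TPM) and Rcor1-202 (36.44%, 16.3 TPM). Both models have 12 exons, but Rcor1-202 begins and ends inside the span of Rcor1-201 and encodes 382 codons against 480. Hdac1-201 took 96.49% and 96.13% of Hdac1, and Hdac2-201 took 99.17% and 99.91% of Hdac2. The deacetylase genes were each mainly a single form in both libraries.

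**Figure D4:**
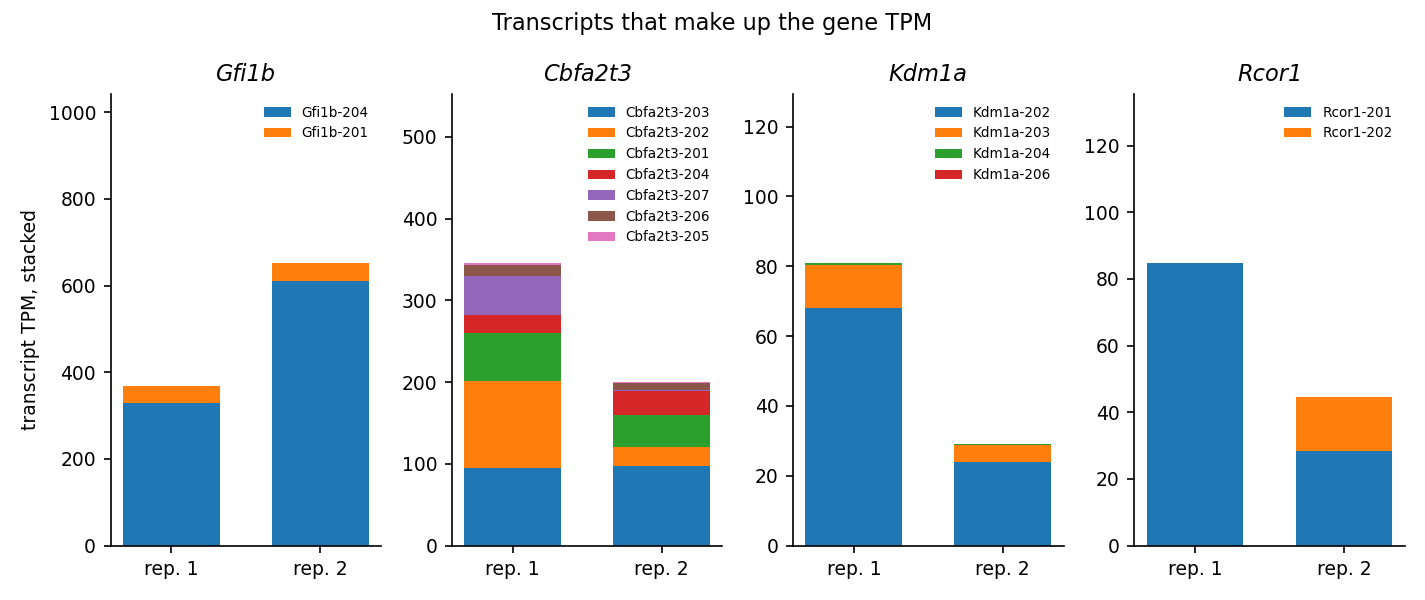
Transcript TPM stacked to the gene TPM for Gfi1b, Cbfa2t3, Kdm1a and Rcor1 in replicates 1 and 2, each panel on its own linear axis from 0. Gfi1b-204 and Kdm1a-202 lead in both libraries, Cbfa2t3-203 is nearly level while Cbfa2t3-202 and Cbfa2t3-207 are smaller in replicate 2, and Rcor1-202 appears in replicate 2 only.

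Genes that work with these repressors were described from 7 lists of 70 genes, of which 59 reached 1 TPM in both libraries and 61 were tested between them. Of those 61, 6 were called higher in replicate 2 and 17 higher in replicate 1, or 9.84% and 27.9%, beside 24.3% and 17.1% of all tested genes; in either direction it was 37.7% beside 41.4%. The counts by list below are to be read against these same shares, which are not matched for GC content. Of the 11 CoREST partners 10 were expressed, the highest being Hmg20b, a subunit of the complex, at 301 ± 128 TPM, Ctbp1, a dehydrogenase-like corepressor, at 271 ± 20.0, and Gse1 at 266 ± 94.6 (SD, n = 2). Called were 1 of them higher in replicate 2 and 3 higher in replicate 1. Zmym2 was the one below 1 TPM, at 0.76 and 0.47.

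Of the 9 other deacetylases 8 were expressed. Highest were the class II genes Hdac7 at 140 ± 83.0, Hdac5 at 88.7 ± 21.5 and Hdac4 at 29.4 ± 8.33 TPM (SD, n = 2), while the class II genes Hdac10 (1.70 and 8.94 TPM) and Hdac6 (1.85 and 1.54) were low. This puts Hdac7 and Hdac5 above the mean level of both Hdac1 and Hdac2. Hdac3, the NCOR-bound class I enzyme, stood at 11.4 and 11.2 TPM, and Hdac9 had 0 counts, which allows up to 0.0231 and 0.0129 TPM. Called were 2 higher in replicate 2 and 1 higher in replicate 1.

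Of the 10 NCOR and SIN3 genes 9 were expressed, led by Sap18 at 472 ± 52.0, Gps2 at 237 ± 27.7 and Ncor1 at 109 ± 30.3 TPM (SD, n = 2). Ncor1 encodes a corepressor that the ETO proteins are known to bind. Of the 9 tested, 0 were called higher in replicate 2 (24.3% of all tested genes) and 3 higher in replicate 1 (17.1%). All 11 NuRD genes were expressed and 8 were at 50 TPM or more in both libraries, led by the methyl-CpG binder family genes Mbd2 (287 ± 211) and Mbd3 (269 ± 71.2) and by Mta1 (242 ± 13.5 TPM, SD, n = 2). Called were 2 higher in replicate 2 and 3 higher in replicate 1.

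All 11 ETO2 and TAL1 complex genes were expressed, 9 of them at 50 TPM or more in both libraries, the highest of the 7 lists by median (329 and 246 TPM). Zfpm1, which encodes the GATA1 cofactor FOG1, stood at 4080 and 2191 TPM, Gata1 at 1132 and 2656, and Lmo2 at 2383 and 964 TPM. Of the 11, 6 were called higher in replicate 1 (17.1% of all tested genes) and 1, Gata1, higher in replicate 2 (24.3%). Of the 11 known GFI1B or GFI1 target genes, 10 were expressed, led by Myc at 388 ± 25.2, Bcl2l1 at 179 ± 38.9 and Cdkn1a at 108 ± 3.36 TPM (SD, n = 2), and Tgfbr3 had 1 and 0 counts. Of the 10 tested, 1 was called higher in replicate 1 (17.1% of all tested genes) and 0 higher in replicate 2 (24.3%). Of the 7 other genes for SNAG domain factors none reached 1 TPM: Snai1, Snai2, Snai3, Insm1 and Scrt2 had 0 counts, Insm2 had 2 and 0, and Scrt1 stood at 0.17 and 0.11 TPM.

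**Figure D5:**
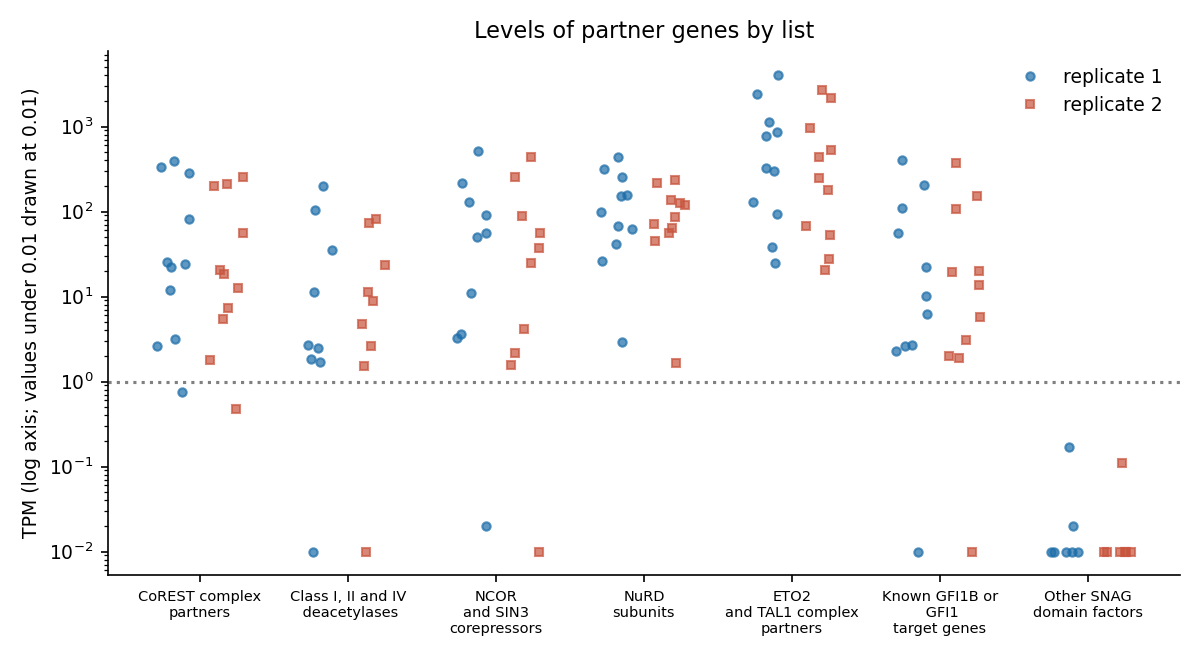
TPM of each of the 70 partner genes in replicate 1 (circles) and replicate 2 (squares) by list, log axis, values under 0.01 drawn at 0.01, dotted line at 1 TPM; points are spread sideways only to separate them. The ETO2 and TAL1 complex partners sit highest and none of the SNAG domain factors reaches 1 TPM.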

How the data were processed

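PolyA-selected RNA was measured in 2 paired-end libraries on mm10, per the labels, with GENCODE M4 named in the submitters' processing notes; the sources used here do not give the aligner, the settings or the use of strand. The deposited expected counts, in columns with RSEM's names per the file headers, are estimates that divide reads among matching transcripts. The deposited TPM and FPKM divide them by effective length, so a short model gets a high value. Isoform percent, as deposited, is the share of gene TPM held by 1 transcript. The deposited signal values, the bounds of TPM intervals, were read and not reported.

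Symbols and models came from GENCODE M21, which uses the same build (GRCm38). Rows of no Ensembl gene (26345, with 2 counts in replicate 1, 5.21e-06%, and 0 in replicate 2) were left out. Expected counts were rounded for the exact binomial test and scaled by TMM in edgeR 4.0.16, with 0.5 counts added for folds. Benjamini-Hochberg adjustment was over 11230 genes. A self-test used simulated data with counting error only, so it does not cover the wider spread between these libraries. TPM ratios had a median log2 of -0.11 over 8535 genes at 1 TPM or more in both libraries, and TPM folds are relative to the deposited scale. Antisense genes overlap Cbfa2t3 (Gm10612, 10 and 50 counts) and Gfi1 (A430072P03Rik, 0), and the end of Luzp1 (1 and 0) overlaps Kdm1a. Named were all 9 genes with transcripts at 10% or more, both genes of each ratio, per list the 3 highest and those under 0.1 TPM in both libraries, the 3 genes nearest Gfi1b and Cbfa2t3, and markers; Zmym2, Hdac3, Hdac6, Hdac10 and Cbfa2t2-ps1 were named after their values were seen. A few genes chosen in this way are not reported here. Genes, lists and tests were chosen with earlier results of these data known. Alternatives were other scalings, filters, thresholds, units and left-out libraries.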

Additional observations from a re-analysis of the deposited data

How the results depend on the processing

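No paired analysis was possible because there is 1 group with 1 library per replicate number. Genes at 50 TPM or more numbered 2 to 4 when either library was left out, with 4 without replicate 2 (Kdm1a and Rcor1 added), against 2 with both. Calls between libraries went from 4 to 0 under edgeR's exact test, whose dispersion came from both libraries (0.623% of all genes called, smallest unadjusted p among the 8 genes 0.122). Since that dispersion holds the difference being tested, the fall in calls does not show that the libraries were alike. The log2 ratio of Rcor1 over Rcor2 reversed from -0.13 to 1.37 on counts not divided by length. With a minimum fold of 2, Gfi1b was no longer called (log2 0.94). Cbfa2t3 passed the fold of 1.5 on TPM (-0.79) and, in alternatives chosen after seeing the data, on TPM centred on the median gene (-0.68) and less the median of genes of like GC content (-0.61). Kdm1a over Rcor1 passed its spread in counts not divided by length (-1.14). The cause was not tested. Without replicate 2, the ratios of Hdac1 over Hdac2 (0.12 to -0.58) and Rcor1 over Rcor2 (-0.13 to 0.04), neither past its spread, changed sign. Rcor1 over Rcor3 went from 1.83 to 3.67 on counts not divided by length. Counting it, the other 120 values of single genes and ratios kept their direction and their side of the threshold. The other counts stayed within 1.5 times, among them genes at 1 TPM (7 to 8 without replicate 2), ratios past their spread (6 to 8 on counts not divided by length) and partner genes (59 to 46 at 5 TPM). Calls between libraries and ratios past their spread need both libraries, so leaving one out gave no value, and DESeq2 and edgeR's quasi-likelihood test could not be fitted with 1 library a side. Depth limits Gfi1 and Runx1t1.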
